A study of Mus musculus with 24 samples.

Results

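WNT ligands and R-spondins were followed as 10 genes, chosen by their symbols from the 22529 genes of the deposited table, and all 10 were found. They are the ligand genes Wnt8b, Wnt3a, Wnt3, Wnt2b, Wnt5a, Wnt7a and Wnt7b and the R-spondin genes Rspo1, Rspo2 and Rspo3. The RNA came from ventricular zone tissue of the embryonic cortex of C57BL/6 mice, in 24 libraries of polyA-selected RNA. Embryos were wild type (WT) or carried a conditional knockout of Prdm16 (cKO). They were taken on 4 days, E11.5 and E13.5 and later E15.5 and E17.5, with 3 libraries, lettered A, B and C, in each of the 8 groups. Prdm16 encodes a zinc-finger transcriptional regulator. The Cre driver, the deleted part of Prdm16 and the number of embryos in a library were not stated in the labels. The p-values therefore rest on the variation among libraries, which may be technical in part. The comparisons ask how each ligand's transcript differs between the genotypes on each day and how it moves from day to day.

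WNT proteins are lipid-modified secreted ligands. They need Porcupine and Wntless to leave the cell, and they bind Frizzled receptors with LRP5/6 co-receptors to stabilize β-catenin, or Ror and Ryk receptors to act without it. R-spondins bind LGR receptors and the ubiquitin ligases ZNRF3 and RNF43, which otherwise clear Frizzled from the membrane, and so raise the response to a WNT. In the embryonic telencephalon the cortical hem, at the medial edge of the cortex, is a known source of Wnt3a, Wnt2b, Wnt5a, Wnt8b and R-spondins, and Wnt7a and Wnt7b are made within the cortex itself.

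Promoter sequences from RefSeq (GRCm38.p6) were matched for 6 of the 10 genes, namely Wnt8b, Wnt3a, Wnt3, Wnt2b, Wnt7a and Rspo1. The 250 bases before the start of Wnt8b and of Rspo1 are shown because these genes had high levels at E11.5 and the largest differences between the genotypes at E13.5. The Wnt8b sequence lies at chr19:44493222-44493471 and that of Rspo1 at chr4:124986180-124986429, both on the plus strand of GRCm38.p6. Capitals mark TAATTA, a homeodomain core motif, which was found in the first and not in the second.
Wnt8b: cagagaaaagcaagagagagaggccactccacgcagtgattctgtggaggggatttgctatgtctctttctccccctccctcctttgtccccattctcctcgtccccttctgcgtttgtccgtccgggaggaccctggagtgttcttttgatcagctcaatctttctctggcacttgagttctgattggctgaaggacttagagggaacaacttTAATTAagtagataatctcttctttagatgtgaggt
Rspo1: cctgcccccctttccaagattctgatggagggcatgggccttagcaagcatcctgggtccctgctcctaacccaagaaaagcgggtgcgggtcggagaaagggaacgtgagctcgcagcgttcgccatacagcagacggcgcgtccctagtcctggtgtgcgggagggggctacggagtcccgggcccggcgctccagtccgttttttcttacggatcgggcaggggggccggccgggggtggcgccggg
The TAATTA of Wnt8b begins 36 bases before the start, and 4.84% of all 32851 RefSeq promoter sequences of the same length hold that motif on either strand. The TCF/LEF core CTTTGA was in none of the 6 sequences and in 13.8% of all. The E-box CANNTG was found once in Wnt8b, Wnt3a and Wnt2b, against 66.2% of all sequences with at least 1. The GC content was 48.4% for Wnt8b and 66.8% for Rspo1. These matches are a description of the letters and not of binding. In the GENCODE M21 annotation of GRCm38, Wnt8b spans chr19:44493472-44514273 and Rspo1 chr4:124986430-125009099 on the plus strand. Wnt7a spans chr6:91363981-91411363, Wnt7b chr15:85535437-85582473 and Rspo2 chr15:43020794-43170826 on the minus strand. Values are given per gene, not per exon or isoform.

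Recovered reads ranged from 25639836 to 38879931 per library. Prdm16 was lower in cKO at E11.5 (log2 fold change −1.06 ± 0.14 SE, adjusted p = 8.1e-05) and at E13.5 (−1.56 ± 0.14, adjusted p = 1.8e-06), was not called at E15.5 (−0.18 ± 0.14, adjusted p = 0.88) and was higher in the libraries labelled cKO at E17.5 (0.76 ± 0.14, adjusted p = 0.00019; limma throughout). At E17.5 the targeted gene thus went against the labels, and every direction given for that day is between libraries labelled cKO and libraries labelled WT. Steps from E15.5 to E17.5, called WT or cKO, rest on the same labels at their later end. In 5 groups (WT and cKO E11.5, cKO E13.5, WT and cKO E15.5) library C was close to a weighted sum of libraries A and B. There its median squared residual was 0.572 to 0.903 times the counting variance, against at least 2.3 in the other 3 groups. In 3 of these 5 C libraries (WT E11.5, cKO E13.5, cKO E15.5), both Xist, expressed from the inactive X, and the Y-linked Ddx3y were present. Results are therefore given with and without the 5 C libraries. Sex was not balanced between the groups. All WT E13.5 and WT E15.5 libraries held Ddx3y and little Xist. All cKO E11.5 libraries and those labelled WT at E17.5 held Xist and little Ddx3y. WT E11.5 A held Xist and B Ddx3y, and the other groups were mixed. In the WT step from E15.5 to E17.5, sex and day cannot be told apart. The part of sex in the other differences was not tested. The keratin Krt5 had 6658 and 3311 normalized reads in WT E15.5 libraries B and C against 1.95 in A. Radial glia genes summed to at least 75240 normalized reads in every library. Postmitotic neuron genes summed to 66450 to 80810 in WT E11.5 and 50680 to 51170 in cKO E11.5. At E15.5 they summed to 263600 to 331500 in WT and 314700 to 327100 in cKO, so neuron transcripts were abundant in the later tissue. Of the hem markers, Lmx1a was between 243 and 423 normalized reads at E11.5. The choroid plexus marker Ttr did not exceed 23.4 in any library. The whole choroid plexus list summed to 432 to 751 in WT E11.5 and 183 to 456 in cKO E11.5. Of its 5 tested genes 1 rose in cKO at E11.5, beside 0.611% of all genes. That count was also 1 in edgeR, and 0 without the 5 C libraries. The part of this list in the differences of the members was not tested.

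**Figure D1:**
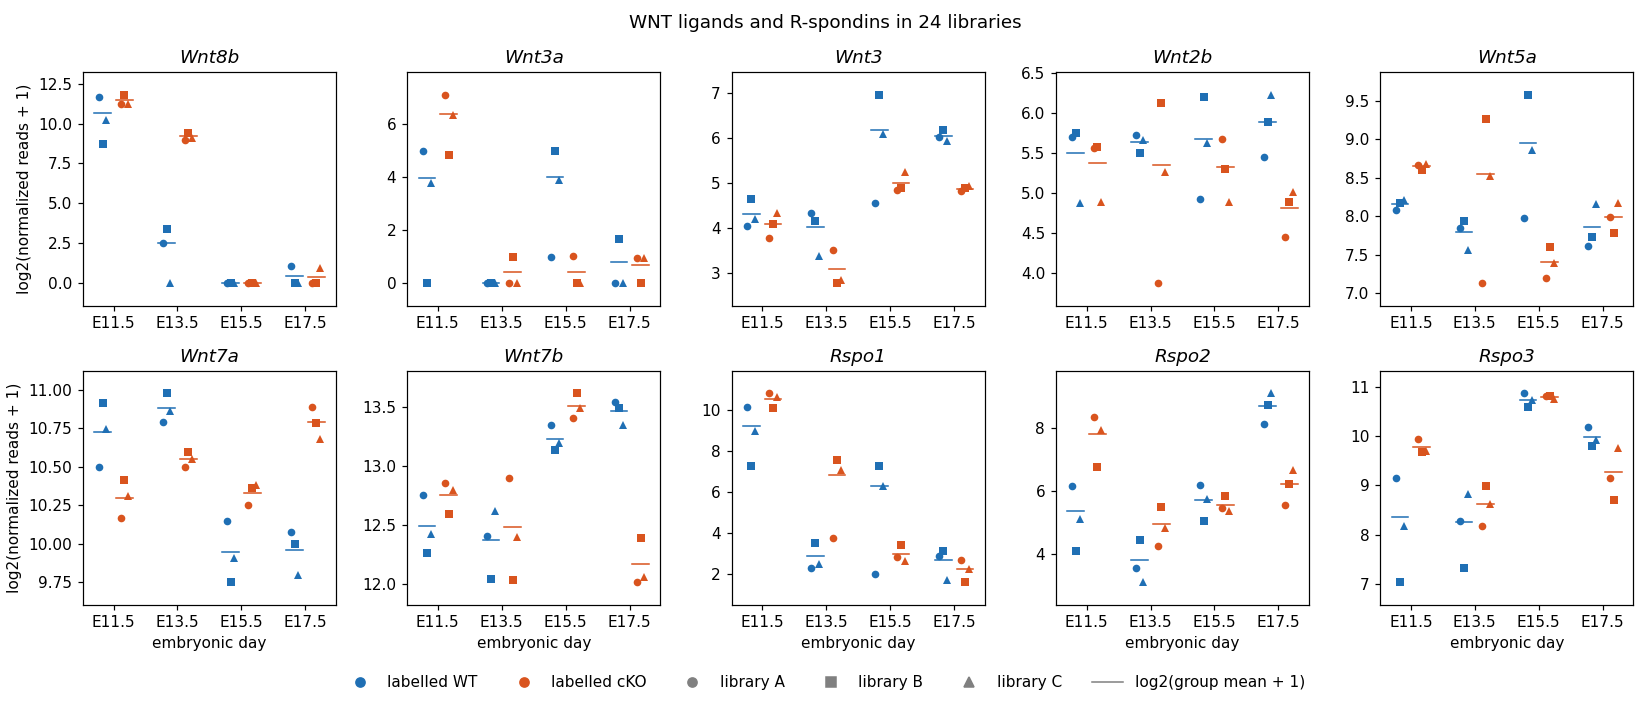
Each panel plots 1 gene on log2(normalized reads + 1) against embryonic day, with 1 point per library (A circle, B square, C triangle; blue labelled WT, orange labelled cKO) and a line at the group mean; the y axes differ between panels. Wnt8b and Rspo1 stood highest at E11.5, Wnt8b was at 510.1 to 690.1 normalized reads in cKO E13.5 against at most 9.44 in WT, and Rspo2 was highest in the libraries labelled WT at E17.5.

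Per kilobase of annotated exon (GENCODE M21), Wnt7b had the highest group mean on every day and in both genotypes, between 937 and 2370 normalized reads per kb. Wnt7a was between 310 and 594 per kb in the 8 groups. Wnt8b reached 805 and Rspo1 782 per kb in cKO E11.5, and 462 and 313 per kb in WT E11.5. Rspo3 ranged from 99.5 to 574 per kb, with its highest levels at E15.5. Wnt5a lay between 21.6 and 63.1 per kb, Rspo2 between 2.53 and 82.5, Wnt3 between 2.45 and 23.2, and Wnt2b between 6.41 and 13.9. Wnt3a was at 29.7 per kb in cKO E11.5 and at most 5.51 per kb in the other groups.

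Wnt8b, a ligand of the medial telencephalon, was abundant at E11.5 and nearly gone from WT tissue at E13.5, while cKO tissue still held it. In WT libraries A, B and C it had 3218, 415 and 1188 normalized reads at E11.5 and 4.80, 9.44 and 0 at E13.5. In cKO it had 2360.1, 3607 and 2439 at E11.5 and 510.1, 690.1 and 549 at E13.5. The E13.5 groups did not overlap, and all 3 cKO libraries were high. The difference between genotypes at E13.5 was 7.21 ± 0.66 on the log2 scale (SE, n = 3 per group, adjusted p = 1.9e-06, limma), and it held without the 5 C libraries (7.24, adjusted p = 0.0011). This and every fold change here is of log2(value + 1), and for low genes it depends on the value added. The Wnt8b difference at E13.5 was 7.60 with 0.5 added, 6.03 with 5 added and 6.93 in edgeR. At E11.5 the groups overlapped, and the difference of 1.24 ± 0.66 did not pass (adjusted p = 0.46). From E11.5 to E13.5 Wnt8b fell by 8.22 in WT (adjusted p = 3.1e-08), whereas in cKO it fell by 2.25 (adjusted p = 0.019). The cKO step did not pass without cKO E11.5 library C (adjusted p = 0.05), without cKO E13.5 library C (adjusted p = 0.058) or without all 5 C libraries (adjusted p = 0.21). The test of the difference between the E11.5 and E13.5 genotype effects gave 5.97 ± 0.94 (adjusted p = 0.0047). At E15.5 no read was recovered in any of the 6 libraries, where 3 reads correspond to 2.58 to 3.08 normalized reads. The cKO mean at E13.5 was thus at least 190-fold higher than at E15.5, and the WT mean at least 1.62-fold higher. The WT step (adjusted p = 0.019) did not pass without WT E13.5 library A (adjusted p = 0.078) or B (adjusted p = 0.14), without the 5 C libraries (adjusted p = 0.092) or without WT E15.5 libraries B and C (adjusted p = 0.13). In bulk tissue, fewer cells of a type and less RNA per cell cannot be told apart, here and below.

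Other genes moved on the same days. Of 13 tested ventral forebrain markers 11 fell in cKO at E11.5, where their sum was 7703 to 9005 normalized reads in WT and 601 to 999 in cKO. At E13.5 9 of the 13 fell, with sums of 2064 to 6479 and 668 to 1635. Of 8 tested hem markers none passed at E11.5 or E13.5 in limma or edgeR, with 1 under an unadjusted p of 0.05 on each day. Lmx1a, which marks the hem, had 38.4, 116 and 26.3 normalized reads in WT E13.5 and 58.6, 45.9 and 43.6 in cKO E13.5, with overlapping groups. Of 9 hippocampal and medial pallium markers 3 rose and 1 fell at E13.5, with sums of 18460 to 21880 in WT and 17980 to 38170 in cKO, and 0 rose and 1 fell without the 5 C libraries. The part of these genes in the Wnt8b difference was not tested.

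Wnt3a, the hem ligand needed for the hippocampus to form, was low throughout. It had 30.9, 0 and 12.7 normalized reads in WT E11.5 and 138, 27.6 and 80.3 in cKO E11.5. The groups overlapped, because WT A exceeded cKO B. The difference of 3.18 ± 1.01 did not pass (adjusted p = 0.11, limma). It passed without WT E11.5 library A (adjusted p = 0.023) and without cKO E11.5 library B (adjusted p = 0.041). It did not pass without WT E11.5 B (1.72, adjusted p = 0.55) or C (adjusted p = 0.16). Nor did it pass without cKO E11.5 A (adjusted p = 0.38) or C (adjusted p = 0.3), or without the 5 C libraries (adjusted p = 0.67). At E13.5 Wnt3a was at 0 in every WT library and at 1 read in 1 cKO library. The WT E11.5 mean of 14.5 was at least 5.04-fold higher than at E13.5. In cKO, Wnt3a fell by 5.77 over this step (adjusted p = 0.00043; 0.039 without the 5 C libraries). The WT step (adjusted p = 0.02) did not pass without WT E11.5 library A (adjusted p = 0.13) or C (adjusted p = 0.079), or without the 5 C libraries (adjusted p = 0.13).

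Rspo2 and Rspo3 were higher in cKO than in WT at E11.5, and Rspo1 did not pass the test. Rspo2 had 70.1, 15.8 and 33.1 normalized reads in WT libraries A, B and C and 328, 108 and 245 in cKO. The groups did not overlap, and WT A was the nearest to cKO. Its difference was 2.59 ± 0.50 (adjusted p = 0.0046, limma). Rspo3 had 569, 131 and 288 in WT and 978, 817 and 834 in cKO, again without overlap. Its difference was 1.65 ± 0.39 (adjusted p = 0.019). Rspo1 had 1154, 156 and 509 in WT and 1817, 1115 and 1616 in cKO, with WT A inside the cKO range. Its difference of 1.72 ± 1.04 did not pass (adjusted p = 0.55).

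WT E11.5 libraries A and B differed from each other in the same genes. Wnt8b was at 3218 in A and 415 in B, and Rspo1, Rspo2, Rspo3 and Wnt3a were also higher in A. Sp5, a direct WNT target, was at 217 and 50.1 normalized reads, and Lmx1a was at 243 and 259.7. The summed meninges list was 22090 in A and 38500 in B, and the choroid plexus list 432 and 751. Xist was at 42120 in A and 13.9 in B, and Ddx3y at 0 and 1720. The cKO E11.5 libraries, like WT A, held Xist and little Ddx3y. The part of tissue content or sex in these differences was not tested. When the 5 C libraries were left out, the Rspo2 difference was 2.45 (adjusted p = 0.25) and that of Rspo3 1.71 (adjusted p = 0.38). The Rspo3 call was also lost without WT library B (1.11, adjusted p = 0.17), WT C (adjusted p = 0.067), cKO A (adjusted p = 0.077) or cKO C (adjusted p = 0.063), whereas Rspo2 passed without each single library. In both E11.5 groups C was close to a weighted sum of A and B. Leaving out A or B therefore does not remove what C shares with it. With only the 2 groups compared, neither Rspo2 nor Rspo3 passed (adjusted p = 0.18 and 0.28, limma).

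From E11.5 to E13.5 all 3 R-spondins fell in cKO. Rspo1 fell by 4.39 (adjusted p = 0.005), Rspo2 by 2.84 (adjusted p = 0.00047) and Rspo3 by 1.18 (adjusted p = 0.033). In WT, Rspo1 fell by 6.06 (adjusted p = 0.00011) and Rspo2 by 1.42 (adjusted p = 0.023), and Rspo3 was not called (0.020, adjusted p = 0.97, limma). With the 5 C libraries left out, Rspo1 in WT (adjusted p = 0.0034) and Rspo2 in cKO (adjusted p = 0.045) passed, and Rspo1 in cKO (adjusted p = 0.07), Rspo2 in WT (adjusted p = 0.093) and Rspo3 in cKO (adjusted p = 0.26) did not. Rspo2 in WT also missed the threshold without WT E11.5 library A (−0.89, adjusted p = 0.15) or C (adjusted p = 0.05) and without WT E13.5 library A (adjusted p = 0.061) or C (adjusted p = 0.11). Rspo3 in cKO missed it without cKO E11.5 library A (adjusted p = 0.12) or C (adjusted p = 0.082) and without cKO E13.5 library A (adjusted p = 0.081) or C (adjusted p = 0.078).

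At E13.5 Rspo1 was higher in cKO. WT libraries had 3.84, 10.4 and 4.70 normalized reads and cKO libraries 12.6, 190 and 136. The groups did not overlap, but cKO A was close to WT B and far below the other two. The difference was 3.38 ± 1.04 (adjusted p = 0.026, limma), and it passed in edgeR (4.16, adjusted p = 0.0094) and DESeq2 (4.16, adjusted p = 0.00053). It did not pass without cKO B (2.67, adjusted p = 0.076), cKO C (adjusted p = 0.1), WT A (adjusted p = 0.073), WT C (adjusted p = 0.083) or the 5 C libraries (adjusted p = 0.17). The summed meninges list was 10880, 35250 and 25350 in cKO A, B and C and 14330 to 34260 in WT, with 0 of its 12 genes passing (also 0 in edgeR and 0 under an unadjusted p of 0.05). Its part in the Rspo1 difference was not tested.

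Rspo3 rose between E13.5 and E15.5 in both genotypes, and Rspo2 rose over both late steps in the libraries labelled WT. Rspo3 had 1867, 1545 and 1699 normalized reads in WT E15.5 and 1792, 1802 and 1724 in cKO E15.5, against 159 to 505 in the E13.5 libraries. WT libraries rose by 2.59 (adjusted p = 1.6e-05) and cKO libraries by 2.20 (adjusted p = 6e-05), and both passed without the 5 C libraries (adjusted p = 0.0011 and 0.004). Rspo2 rose by 1.96 in WT over the same step (adjusted p = 0.0031), to a mean of 51.9. It rose by a further 3.02 to the libraries labelled WT at E17.5 (adjusted p = 0.00015), whose mean was 422, against 74.1 in those labelled cKO. Both rises passed without the 5 C libraries (adjusted p = 0.032 and 0.0059). In cKO the same 2 steps were 0.70 and 0.61, and neither was called (adjusted p = 0.23 and 0.39). Tested directly, the Rspo2 genotype effect did not differ between E13.5 and E15.5 by the threshold (−1.26 ± 0.71, adjusted p = 0.27, limma). Between E15.5 and E17.5 it did (−2.40 ± 0.71, adjusted p = 0.015). At E17.5 Rspo2 had 280.1, 431 and 554 normalized reads in the libraries labelled WT and 46.3, 74.4 and 102 in those labelled cKO. The groups did not overlap, and the difference was −2.51 ± 0.50 (adjusted p = 0.00044; 0.0036 without the 5 C libraries). Rspo3 fell by 1.59 from E15.5 to E17.5 in the libraries labelled cKO (adjusted p = 0.004; 0.044 without the 5 C libraries), while the difference between genotypes at E17.5 did not pass (−0.78 ± 0.39, adjusted p = 0.12).

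Wnt7a, a ligand of cortical progenitors, and Wnt7b moved in opposite directions late in the course. Wnt7a fell in WT from E13.5 to E15.5, from 1772, 2015 and 1862 to 1130.3, 859.8 and 958.6 normalized reads. That step was −0.94 ± 0.11 (adjusted p = 6.6e-07, limma; 0.00019 without the 5 C libraries). In cKO the same step was −0.22 ± 0.11 and did not pass (adjusted p = 0.089). Wnt7b rose over this step. The rise was 0.87 ± 0.17 for WT (adjusted p = 0.00034) and 1.06 ± 0.17 for cKO (adjusted p = 2.5e-05), and both passed without the 5 C libraries (adjusted p = 0.0069 and 0.003). From cKO E15.5 to the libraries labelled cKO at E17.5, Wnt7a moved by 0.46 (adjusted p = 0.0037) and Wnt7b by −1.35 (adjusted p = 9.6e-06). Both steps passed without the 5 C libraries (adjusted p = 0.039 and 0.0012). To the libraries labelled WT the same steps were 0.021 and 0.23, and neither was called (adjusted p = 0.91 and 0.33).

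At E17.5 Wnt7a was at 1076, 1019 and 887 normalized reads in the libraries labelled WT and 1898, 1765 and 1638 in those labelled cKO. All libraries labelled cKO were higher, by 0.83 ± 0.11 (adjusted p = 4.3e-06, limma). Wnt7b was at 11873, 11519 and 10412 in the libraries labelled WT and 4132, 5363 and 4266 in those labelled cKO. All libraries labelled cKO were lower, by a difference of −1.30 ± 0.17 (adjusted p = 4.8e-06). Both passed without the 5 C libraries (adjusted p = 0.00018 and 0.00017). On the same day 10 of 11 radial glia markers and 6 of 7 intermediate progenitor markers rose in the libraries labelled cKO. Radial glia markers summed to 76380 to 82570 normalized reads in the libraries labelled WT and 201100 to 213500 in those labelled cKO. Of 11 postmitotic neuron markers 8 fell, with sums of 464200 to 505000 and 210000 to 250400. All 8 Cajal-Retzius markers fell, among them Reln, with sums of 16150 to 19870 and 691 to 2193, and 5 of 8 microglia markers rose. Of 8 tested hem markers 2 rose and 1, Lmx1a, fell (−1.59, adjusted p = 0.018, at most 9.62 normalized reads). The hem list summed to 16490 to 17910 in the libraries labelled WT and 34420 to 37270 in those labelled cKO. Nearly all of each sum came from genes of the list other than Lmx1a, and the list included Ccnd2 and Dkk3. Hippocampal and medial pallium markers rose in 4 of 9 cases, with sums of 11520 to 14310 and 13770 to 14660. The part of these markers in the Wnt7a, Wnt7b and Rspo2 differences was not tested.

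**Figure D2:**
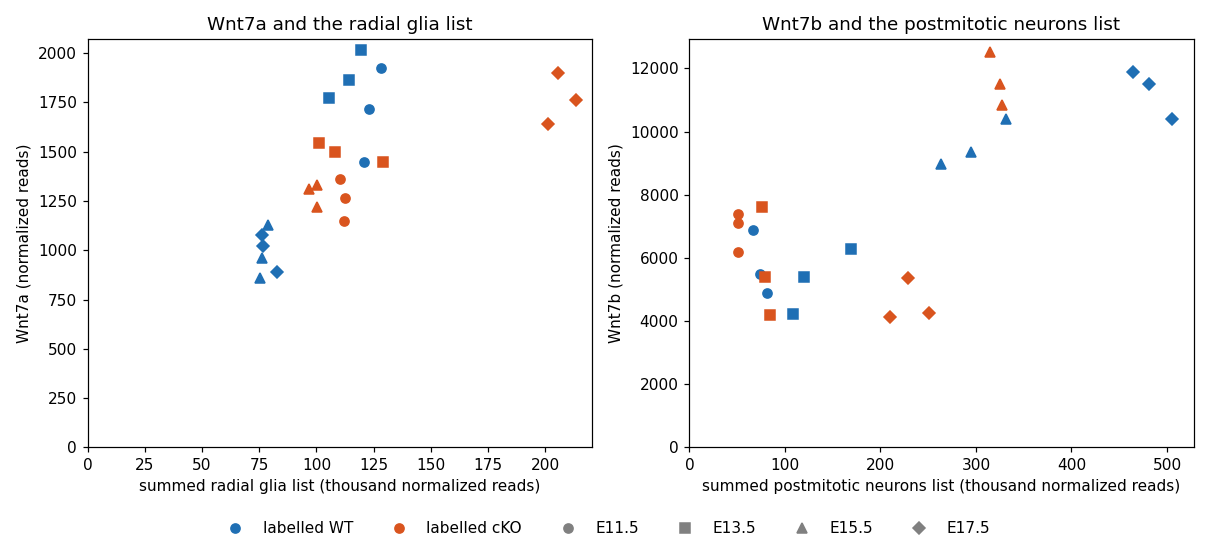
Left, Wnt7a normalized reads against the summed radial glia list, and right, Wnt7b against the summed postmitotic neuron list, with 1 point per library (colour for the labelled genotype, shape for the day). The 3 libraries labelled cKO at E17.5 stood at 201100 to 213500 on the radial glia axis with Wnt7a at 1638 to 1898, and at 210000 to 250400 on the neuron axis with Wnt7b at 4132 to 5363.

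Early in the course Wnt7a was slightly lower in cKO. It had 1447, 1925 and 1716 normalized reads in WT E11.5 and 1146, 1363 and 1267 in cKO E11.5, without overlap (−0.42 ± 0.11, adjusted p = 0.037, limma). At E13.5 cKO libraries had 1447, 1546 and 1500.5, all below the 3 WT libraries (−0.33 ± 0.11, adjusted p = 0.038). Neither passed without the 5 C libraries (adjusted p = 0.61 and 0.18). The E11.5 call was lost without WT B (adjusted p = 0.26), WT C (0.15), cKO A (0.18) or cKO C (0.11), each an adjusted p. The E13.5 call was lost without WT B (0.12), WT C (0.088), cKO A (0.13) or cKO C (0.087), each an adjusted p, and in edgeR (adjusted p = 0.053). Radial glia markers summed to 120700 to 128000 in WT E11.5 and 110300 to 112400 in cKO E11.5, where 2 of 11 fell (0 without the 5 C libraries). At E13.5 they summed to 105300 to 119500 in WT and 100900 to 129100 in cKO, where 1 rose and 4 fell (0 and 1 without the 5 C libraries). Their part in the Wnt7a differences was not tested. Wnt7b did not pass on either day (0.27 ± 0.17, adjusted p = 0.58, and 0.09 ± 0.17, adjusted p = 0.75).

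Wnt3, a β-catenin-type ligand, was low at E11.5 and E13.5 and rose by E15.5. In cKO it went from 10.5, 5.87 and 6.23 normalized reads at E13.5 to 27.7, 28.8 and 36.8 at E15.5, a rise of 1.94 ± 0.41 (adjusted p = 0.00039, limma; 0.022 without the 5 C libraries). At E17.5 it was at 64.1, 71.2 and 60.4 in the libraries labelled WT and 27.3, 28.5 and 29.5 in those labelled cKO. The groups did not overlap, and the difference was −1.17 ± 0.41 (adjusted p = 0.028). Leaving out any single E17.5 library moved the adjusted p to between 0.051 (without cKO C) and 0.078 (without WT B). Those in between were 0.052 without WT C, 0.057 without WT A, 0.06 without cKO B and 0.073 without cKO A, each an adjusted p. It was 0.066 without the 5 C libraries, none of them from this day. Wnt2b, a ligand of the hem, stayed within a narrow range, with group means between 26.9 and 58.3 normalized reads, and neighbouring groups overlapped all along the order of its levels. At E17.5 it was at 42.8, 58.0 and 74.1 in the libraries labelled WT and 20.9, 28.5 and 31.4 in those labelled cKO. These did not overlap, but the difference of −1.07 ± 0.43 missed the threshold (adjusted p = 0.053) and passed without WT E17.5 library A (−1.27, adjusted p = 0.045) and in edgeR (adjusted p = 0.044).

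Wnt5a, a ligand known for signalling without β-catenin, was lower in cKO than in WT at E15.5. It had 252, 765 and 463 normalized reads in WT libraries A, B and C and 146, 194 and 167 in cKO, without overlap. The difference was −1.41 ± 0.37 (adjusted p = 0.048, limma). WT B and C were the high libraries, and they also held the epidermal and meningeal transcripts. Library C was close to a sum of 49.2% of A and 49.5% of B, so B and C do not count as independent. The summed epidermis list was 347, 20560 and 10430 normalized reads in WT A, B and C against 315 to 371 in cKO, and 5 of its 8 genes fell in cKO. The summed meninges list was 1629, 113500 and 55890 against 1496 to 2330.0, and 2 of its 12 genes fell. Without WT B and C, the Wnt5a difference was −0.59 (adjusted p = 1). It also missed the threshold without WT B (−1.02, adjusted p = 0.42), WT C (adjusted p = 0.19), cKO A (adjusted p = 0.2), cKO B (adjusted p = 0.1), cKO C (adjusted p = 0.15) or the 5 C libraries (adjusted p = 0.76).

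Other ligands followed the same 2 WT libraries, of which C was again close to a weighted sum of A and B. Rspo1 was at 2.93, 155 and 76.6 normalized reads in WT E15.5 A, B and C and 6.15, 9.60 and 5.11 in cKO. Wnt3a was at 0.98, 30.9 and 13.8 against 1.03, 0 and 0. Wnt3 was at 22.5, 124 and 67.1 against 27.7, 28.8 and 36.8. In each of these genes WT A lay below or near the cKO libraries, and B and C above them. None of the 3 passed (adjusted p = 0.44, 0.17 and 0.44), and all 3 passed without WT A (adjusted p = 0.0068, 0.013 and 0.004). Without WT B and C, the differences were 0.98, −0.64 and 0.44 (adjusted p = 1 for each). Wnt2b was at 29.3, 72.4 and 48.2 in WT and did not pass (adjusted p = 0.99).

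**Figure D3:**
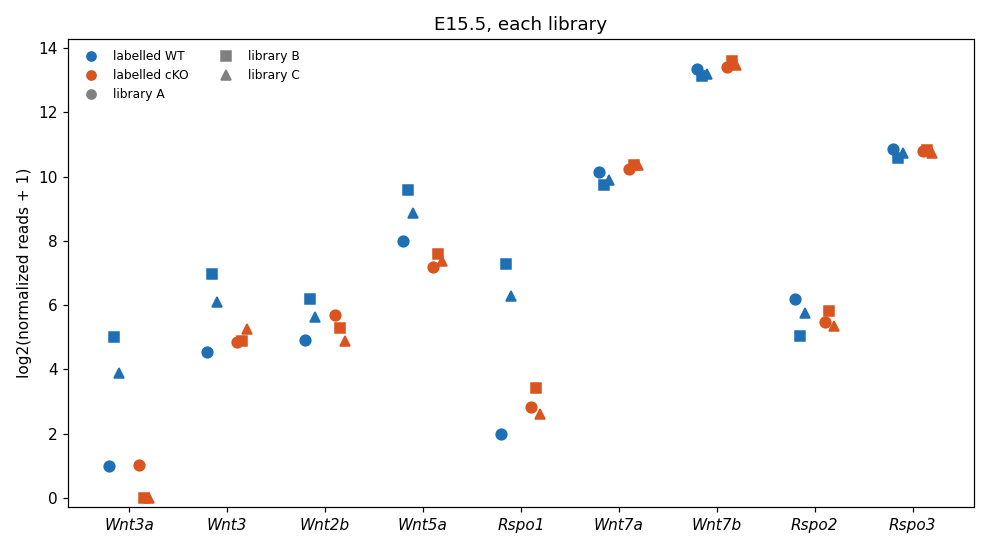
Levels of the 9 members with reads at E15.5 on log2(normalized reads + 1), 1 point per library (A circle, B square, C triangle; blue WT, orange cKO). For Wnt3a, Wnt3, Wnt5a and Rspo1, WT libraries B and C stood above A (Rspo1 155 and 76.6 against 2.93 normalized reads), while Wnt7b and Rspo3 lay close together in all 6. WT library C was close to a weighted sum of A and B and is not independent of them.

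The steps of Wnt3a, Wnt3 and Wnt5a into and out of WT E15.5 rest on these libraries. From E13.5 to E15.5 Wnt3 rose by 1.91 (adjusted p = 0.00068) and Wnt5a by 1.02 (adjusted p = 0.03), and without B and C they moved by 0.59 (adjusted p = 0.27) and 0.20 (adjusted p = 0.79). Wnt3a had a mean of 15.2 normalized reads at E15.5, at least 5.28-fold higher than at E13.5, and 0.98 in library A. From E15.5 to the libraries labelled WT at E17.5 Wnt3a fell by 2.73 (adjusted p = 0.045), and without B and C by 0.43 (adjusted p = 0.9). That call was also lost without B (adjusted p = 0.24), C (adjusted p = 0.14), or WT E17.5 A or C (adjusted p = 0.13 for each). The Wnt3a rise missed the threshold without B (adjusted p = 0.076), and that of Wnt5a without B (0.2), C (0.072), or WT E13.5 A (0.058) or C (0.09), each an adjusted p. Leaving out the 5 C libraries gave an adjusted p of 0.084 for the Wnt3a rise, 0.21 for its later fall, 0.13 for the Wnt5a rise and 0.014 for the Wnt3 rise. Without B and C, Wnt3 rose from E15.5 to the libraries labelled WT at E17.5 by 1.49 (adjusted p = 0.026), against an adjusted p above the threshold with them. The WT steps of Wnt7a, Wnt7b, Rspo2 and Rspo3 from E13.5 to E15.5 passed without B and C (−0.73, 0.99, 2.49 and 2.72, adjusted p = 7e-04, 0.0055, 0.011 and 0.0012). The fall of Wnt5a in cKO over this step (−0.91, adjusted p = 0.041) followed cKO E13.5 libraries at 139, 615 and 366 normalized reads, and it did not pass without cKO E13.5 B (−0.43, adjusted p = 0.3) or C (adjusted p = 0.12), cKO E15.5 A (adjusted p = 0.12) or C (adjusted p = 0.082), or the 5 C libraries (adjusted p = 0.23). Rspo1 fell by 3.19 in cKO over this step (adjusted p = 0.012), and did not pass without cKO E13.5 B (adjusted p = 0.065) or C (adjusted p = 0.056) or the 5 C libraries (adjusted p = 0.15).

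Counted over the 10 genes and adjusted over all 17518 tested genes (limma, Benjamini-Hochberg, threshold 0.05), 2 rose, 1 fell and 7 did not pass in cKO at E11.5. All tested genes passed in 0.611% (higher) and 2.52% (lower) of cases. The median log2 fold change was 0.87 over the members and −0.0039 over all genes. At E13.5 2 rose, 1 fell and 7 did not pass, beside 9.79% and 12.5% of all genes, with a median of 0.39 (0.45 over the 9 members without a group at 0) against −0.018. At E15.5 none rose, 1 fell and 9 did not pass, beside 0.833% and 1.68%, with a median of −0.20 (−0.29 without Wnt8b) against 0.039. At E17.5 1 rose, 3 fell and 6 did not pass in the libraries labelled cKO, beside 18.6% and 21.8%, with a median of −0.58 against −0.041. At E13.5 and E17.5 the members' counts were close to the shares of all genes. Without the 5 C libraries 0, 1, 0 and 3 members passed on the 4 days, beside 0.554%, 2.64%, 0.223% and 33.2% of all genes in either direction. At E11.5 and E15.5 respectively 4 and 2 members then had an unadjusted p under 0.05.

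**Figure D4:**
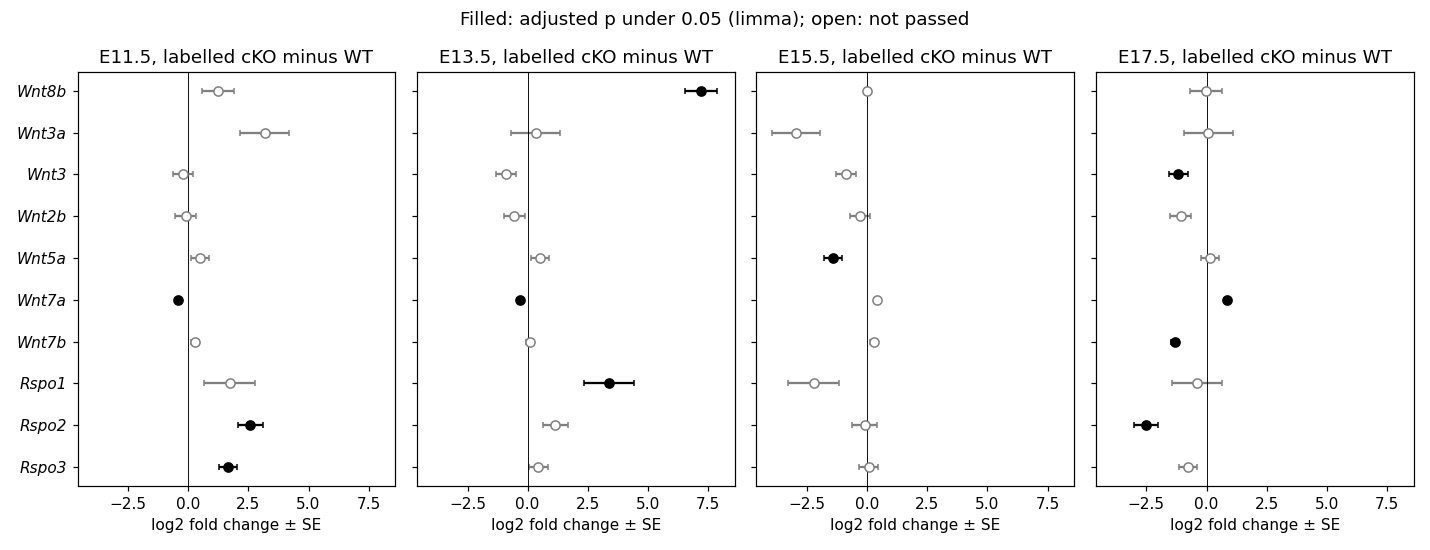
Log2 fold change with its SE for each member on each day, labelled cKO minus WT, with filled points for an adjusted p under 0.05 (limma over all tested genes) and open points for the others. Wnt8b at E13.5 was the largest difference (7.21), and Wnt8b at E15.5 is drawn at 0 because no read was recovered in any library.

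Over the steps between days, which share libraries, 4 members fell and none rose in WT from E11.5 to E13.5, beside 25.7% and 29.6% of all genes. From E13.5 to E15.5 in WT, 6 rose and 2 fell, beside 24.2% and 22.8%. Without WT E15.5 libraries B and C 3 rose and 1 fell, beside 35% of all genes in either direction. From E15.5 to E17.5 in WT, 1 rose and 1 fell, beside 17.6% and 14.6%. In cKO none rose and 5 fell from E11.5 to E13.5, beside 15.5% and 9.62%. Then 3 rose and 3 fell from E13.5 to E15.5, beside 31.9% and 29.9%, and 1 rose and 2 fell from E15.5 to E17.5, beside 15.4% and 13.6%.

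Whether the genotype effect differed between the 4 days was tested jointly. It did so for 8 of the 10 members, beside 32.2% of all genes, and not for Wnt3 and Wnt2b (adjusted p = 0.54 for each, limma F test). For Wnt7a the effect rose by 0.72 ± 0.16 from E13.5 to E15.5 (adjusted p = 0.013) and by 0.43 ± 0.16 from E15.5 to E17.5 (adjusted p = 0.041). At E15.5 itself the Wnt7a effect was 0.40 ± 0.11 and did not pass (adjusted p = 0.061, limma). It was 0.19 without WT E15.5 libraries B and C, so both changes depend in size on these libraries. For Wnt7b the effect changed by −1.58 ± 0.25 from E15.5 to E17.5 (adjusted p = 6.9e-05), and for Rspo2 by −2.40 ± 0.71 (adjusted p = 0.015). Without the 5 C libraries the joint test passed for 4 members, Wnt8b, Wnt7a, Wnt7b and Rspo2 (adjusted p = 0.0019, 0.0014, 0.0049 and 0.007), beside 13.9% of all genes.

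Genes of the pathway were read from lists chosen with earlier results of these data known. Each count is to be read against the shares of all tested genes given above, which were 9.79% higher and 12.5% lower at E13.5 and 18.6% and 21.8% at E17.5, against 0.611% and 2.52% at E11.5 and 0.833% and 1.68% at E15.5. Of 9 genes for WNT secretion and release none passed at E11.5 or E13.5 in limma, with 0 and 2 under an unadjusted p of 0.05 and 0 and 1 called by edgeR. Wls, the WNT carrier Wntless, was at 870, 1187 and 732 normalized reads in WT E13.5 and 1265, 1583 and 1565 in cKO E13.5. These groups did not overlap, and the difference of 0.68 ± 0.25 missed the threshold (adjusted p = 0.058). At E15.5 1 fell, the glypican Gpc3, at 119, 1816 and 978 in WT A, B and C and 67.7 to 103 in cKO (adjusted p = 0.022; 1 without WT B and C). At E17.5 3 rose and 1 fell in the libraries labelled cKO. Trabd2b, a protease that inactivates WNTs, rose by 1.97 (adjusted p = 0.00047), and the sulfatase Sulf2 fell by 1.09 (adjusted p = 0.00071).

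Of 12 Frizzled and LRP receptors 1 rose at E11.5, namely Fzd9 (0.82 ± 0.19, adjusted p = 0.018, limma). At E13.5 2 rose and 3 fell. Fzd3, a receptor of axon guidance and planar polarity, was at 4158, 4335 and 3973 normalized reads in WT and 1266, 2474 and 1746 in cKO libraries (−1.24 ± 0.41, adjusted p = 0.038), and Fzd7 rose by 0.74 (adjusted p = 0.033). These calls were lost without the 5 C libraries (adjusted p = 0.49 for Fzd9 at E11.5, and 0.15 for Fzd3 and 0.16 for Fzd7 at E13.5). At E15.5 2 fell. Fzd5 was at 39.1, 26.1 and 41.3 in WT and 6.15, 5.76 and 2.05 in cKO, so all 3 WT libraries were high (−2.76 ± 0.33, adjusted p = 4.3e-05; 0.016 without the 5 C libraries and 0.0055 without WT B and C). The other was Fzd10, at 21.5, 295 and 159 in WT A, B and C and 16.4, 21.1 and 8.18 in cKO libraries (adjusted p = 0.025; 1 without B and C). At E17.5 5 rose and 2 fell in the libraries labelled cKO, with Fzd7 up by 1.83 (adjusted p = 3.4e-06) and Fzd5 down (−1.83, adjusted p = 0.00016).

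Receptors and effectors of the WNT5A type numbered 11, and 1 rose and 5 fell at E13.5 (0 and 2 without the 5 C libraries). Among those that fell were the planar polarity cadherins Celsr3 (−1.62 ± 0.24, adjusted p = 0.00026, limma) and Celsr1 (−1.18 ± 0.23, adjusted p = 0.0023). Of 11 neuron markers 5 fell on that day too, and 1 without the 5 C libraries. At E17.5 2 of the WNT5A-type genes rose and 3 fell in the libraries labelled cKO. Of the pair of WNT7 co-receptor genes, Reck fell at E15.5 (−1.13, adjusted p = 0.048) and Adgra2 did not pass (−1.46, adjusted p = 0.066). Reck was at 291, 1022 and 609 in WT A, B and C and 252 to 262 in cKO, so the high libraries were again B and C, and its adjusted p was 1 without them. Of 5 R-spondin receptor and ligase genes, Lgr4 fell at E11.5, from 442, 496 and 473 normalized reads in WT to 243, 251 and 277 in cKO (−0.87 ± 0.22, adjusted p = 0.035). Its adjusted p was 0.46 without the 5 C libraries. At E17.5 1 of the 5 rose, Znrf3 (0.67, adjusted p = 0.011), and 1 fell.

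Among 12 genes that respond to WNT signalling none passed at E11.5 in limma or edgeR, with 4 under an unadjusted p of 0.05. At E13.5 3 rose and none fell. Sp5 had 4.80, 7.55 and 2.82 normalized reads in WT and 130, 27.4 and 47.8 in cKO libraries (3.30 ± 0.81, adjusted p = 0.0085). Lef1, a nuclear partner of β-catenin, had 839.9, 987 and 634 and 1718, 1306 and 1582 (0.92 ± 0.22, adjusted p = 0.0071), and Tnfrsf19 rose by 0.87 (adjusted p = 0.0021). Axin2, a feedback inhibitor widely used as a readout of β-catenin signalling, did not pass on any day (adjusted p = 0.6, 0.62, 0.89 and 0.74). Without the 5 C libraries the adjusted p at E13.5 was 0.048 for Tnfrsf19, 0.071 for Sp5 and 0.08 for Lef1. At E15.5 1 fell, Sp5, at 1.95, 56.9 and 30.1 normalized reads in WT A, B and C and at most 1.92 in cKO (−3.27 ± 0.81, adjusted p = 0.033; 1 without WT B and C). At E17.5 3 rose in the libraries labelled cKO, with Nkd1 up by 1.18 (adjusted p = 8.8e-06) and Lef1 by 0.98 (adjusted p = 0.0011).

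Of 11 tested WNT antagonists, Frzb rose in cKO at E13.5 (1.07 ± 0.18, adjusted p = 0.00077, limma), with 1 also without the 5 C libraries. At E15.5 2 rose and 4 fell, and 2 rose and none fell without WT libraries B and C. Wif1 was at 2.93, 499.9 and 279.7 normalized reads in WT A, B and C and at most 4.09 in cKO. Sfrp4, which rose, was at 31.3, 31.8 and 30.1 normalized reads in WT libraries and 171, 174 and 166 in cKO libraries (2.42 ± 0.34, adjusted p = 0.00028). Its adjusted p at E15.5 was 0.059 when the 5 C libraries were left out and 0.042 without WT libraries B and C. Sfrp4 was also higher in the libraries labelled cKO at E17.5 (3.74 ± 0.34, adjusted p = 3.2e-08), where Sfrp1 (1.23 ± 0.12, adjusted p = 5e-08) and Kremen1, a transmembrane receptor of DKK proteins (2.42 ± 0.18, adjusted p = 2.1e-09), rose as well. On that day 2 others fell, Frzb (−0.80, adjusted p = 0.0011) and Sostdc1 (mean 34.7 normalized reads labelled WT and 8.67 labelled cKO, adjusted p = 0.045; 0.08 without the 5 C libraries). Of 6 tested ligands outside the 10 members, 1 fell at E15.5 (Wnt6, 1.95, 122 and 75.7 normalized reads in WT) and 1 fell in the libraries labelled cKO at E17.5 (Wnt4, 36.3, 35.0 and 37.6 against 4.54, 5.09 and 10.4). Neither passed when the 5 C libraries were left out (adjusted p = 0.89 and 0.066).

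By Pearson's r of log2 values over the 24 libraries, which share day and depth, Rspo1 was most like Wls (0.928), Col9a2 (0.920) and Sp5 (0.917). Wnt8b was most like Nsun2 (0.971), Pus7 (0.970) and Mrps18b (0.969). Wnt3a was most like Rspo1 (0.821), Wnt7a most like Igsf11 (0.930), Wnt7b most like AI429214 (0.905), and Rspo3 most like Pde1a (0.890). Wnt3 was most like Jup (0.904), Wnt5a most like Nt5e (0.859), Wnt2b most like Myo1c (0.789) and Rspo2 most like Bid (0.867). These were taken from 14428 genes and describe the libraries only.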

How the data were processed

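PolyA-selected RNA was sequenced in 24 libraries. The authors deposited 1 table of signal, that is, read counts divided by a size factor. The submitters' processing notes name DESeq 1.22.1, HTSeq 0.5.3, STAR 2.5.0a and cutadapt 1.6 and the build mm10 (GRCm38). What each tool did, the annotation, the strand setting and the handling of reads with several matches are not given there. Reads of Wnt5a, Wnt7b, Rspo1 and Rspo3 can therefore not be told apart from those of annotated antisense genes, nor those of Wnt2b from a sense intronic one. Values were whole multiples of 1 read within 0.01 in 100% of cases, so reads were recovered (25639836 to 38879931 per library). At that depth a gene near the filter rests on few reads per library.

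The main test was limma 3.58.1 with a mean-variance trend on log2(signal + 1), with a mean for each of the 8 groups. Genes needed at least 10 in at least 3 libraries, which left 17518 of 22529 and all 10 members. P-values were Benjamini-Hochberg adjusted over all tested genes, with a threshold of 0.05. Count tests (edgeR 4.0.16 and DESeq2 1.42.0 on recovered reads) were alternatives. Others were pseudocounts of 0.5 and 5, other filters, TMM factors, no trend, the letter as block, the 2 groups alone and leaving out each library. Leaving out the 5 C libraries, or WT E15.5 B and C, was added after seeing the data. A floor of 3 reads per library, the largest in the group, gave bounds for groups at 0. Such bounds cover counting error only. The scripts were tested on simulated data.

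The members and lists were chosen with earlier results of these data known. Every member is reported on every day in numbers or counts. Pathway genes were named from up to 3 called genes per list and day with the largest fold change and a group mean of 50 or more. Wls, Axin2, Adgra2, Lmx1a, Wnt4, Fzd5 and Sp5 at E15.5 and Frzb and Sostdc1 at E17.5 were named after their values were seen. Protein sequences were not used here. R 4.3.3 and Python 3.11.15 were used.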

Additional observations from a re-analysis of the deposited data

Results flagged for a closer look

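The genotype effect differed between the 4 days by the joint F test of limma, adjusted over all genes, for 8 members. The adjusted p was 1.1e-05 for Wnt8b, 0.018 for Wnt3a, 0.019 for Wnt5a and 6.6e-06 for Wnt7a. It was 8.9e-05 for Wnt7b, 0.025 for Rspo1, 0.00011 for Rspo2 and 0.013 for Rspo3. Of all tested genes 32.2% passed the same test. The E17.5 labels enter each of these tests, and Prdm16 went against them.

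Without WT E15.5 libraries B and C the adjusted p was 0.16 for Wnt3a, 0.41 for Wnt5a and 0.087 for Rspo1, and 0.026 for Rspo3. Without B alone it was 0.051, 0.08 and 0.058 for Wnt3a, Wnt5a and Rspo1. The Rspo1 test also missed the threshold without WT E13.5 A (0.051), cKO E13.5 C (0.058), WT E15.5 C (0.062) or cKO E15.5 C (0.053), and that of Wnt5a without cKO E15.5 A (0.059), each an adjusted p. Without the 5 C libraries it was 0.12 for Rspo3.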

How the results depend on the processing

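No called difference between genotypes reversed under the alternatives run. Of 438 values under other settings, 401 kept their side of the threshold and direction, 19 lost it, 10 gained it and 8 uncalled ones changed sign. At E15.5 without WT B and C, Wnt3 went from −0.88 to 0.44, Wnt2b from −0.29 to 0.37, Rspo1 from −2.23 to 0.98 and Rspo3 from 0.061 to −0.075, and Rspo2 from −0.11 to 0.036 without the 5 C libraries. At E17.5 Wnt3a went from 0.074 to −0.011 with a pseudocount of 5, −0.16 in edgeR and −0.22 in DESeq2. Of 240 with 1 library left out, 189 kept side and direction, 27 lost it, 8 gained it and 16 uncalled ones changed sign. Those ranges were −0.39 to 0.13 for Wnt2b at E11.5, −1.06 to 0.059 for Wnt2b and −0.14 to 0.29 for Wnt7b at E13.5, −0.62 to 0.019 for Wnt2b, −0.41 to 0.16 for Rspo2 and −0.0070 to 0.13 for Rspo3 at E15.5, and −0.35 to 0.32 for Wnt8b and −0.20 to 0.63 for Wnt3a at E17.5. The cause of these shifts was not tested, except that fewer libraries enter some fits.

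Members called at E11.5 (3) were 0 with only the 2 groups compared and 0 without the 5 C libraries, and 1 to 4 with 1 library left out. At E13.5 (3) they were 1 and 1 in those settings, and 1 to 3 with 1 left out. At E15.5 (1) they were 0 with a mean of at least 50, without the trend, with the 2 groups alone, without the 5 C libraries and without WT B and C, 4 in DESeq2, and 0 to 5 with 1 left out. At E17.5 the count was 3 to 4 with 1 left out.

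For the WT step from E11.5 to E13.5 (4), 2 passed without the 5 C libraries and 2 to 4 with 1 left out. For WT E13.5 to E15.5 (8), 5 passed without the 5 C libraries, 4 without WT B and C, and 6 to 9 with 1 left out. For WT E15.5 to E17.5 (2), 1 passed with a pseudocount of 5, without the trend and without the 5 C libraries, 4 in edgeR and in DESeq2, and 1 to 4 with 1 left out. For the cKO step from E11.5 to E13.5 (5), 2 passed without the 5 C libraries and 3 to 6 with 1 left out. With 1 left out, the later cKO steps (6 and 3) gave 4 to 6 and 3. The joint test (8) gave 4 without the 5 C libraries, 5 without WT B and C, and 5 to 8 with 1 left out. Where 1 sample remained in a group, it was assumed to vary like the other groups.

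The labels mention embryo pairs but tie no letter to one, so the letters were not used to pair samples. Same-letter WT and cKO libraries correlated at −0.428 to 0.11, 1 of 12 pairs was over 0.1, and the own letter was best for 4 of 12. With the letter as replicate block, Rspo2 at E13.5 passed (1.16, adjusted p = 0.025) and no other member's call between genotypes changed. Depth limits Wnt3a, Wnt8b after E13.5 and Rspo1 after E11.5, which rest on few reads in most libraries.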
